A study of Mus musculus with 2 samples.

Results

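The mRNAs of 10 neuropeptide receptors were examined in hippocampus of male 5xFAD/CAST mice. They are the somatostatin receptors Sstr1, Sstr2, Sstr3 and Sstr4, the neuropeptide Y (NPY) receptors Npy1r, Npy2r and Npy5r, the delta opioid receptor Oprd1, the nociceptin receptor Oprl1 and the corticotropin-releasing hormone (CRH) receptor Crhr1. They were taken by symbol, with no threshold on a measured value, but with earlier results of these data known. All 10 of them were found among the 55536 annotated genes of the deposited gene tables. Total RNA, 300 ng per library, was taken from tissue labelled as a layer of hippocampus of adult males aged 8 to 10 months, and was made into 2 libraries with ERCC spike-in RNAs and a directional kit. The labels call them biological replicates 1 and 2 of 1 group and give both the same donor identifier, and nothing else says that they came from separate animals, so each SD below (n = 2) and each p-value may reflect technical spread alone. 5xFAD mice carry transgenes with mutations of familial Alzheimer disease, human APP being expressed in neurons from a Thy1 promoter, and CAST is a wild-derived mouse strain whose alleles were quantified here against the mm10 reference. Mice without the transgenes were not analysed here, so there was no comparison between conditions, and every level below is that of transgenic animals.

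Neuropeptide receptors are membrane proteins that answer peptides released from neurons, in the hippocampus largely from GABAergic interneurons that make somatostatin or NPY. Somatostatin, NPY and opioid-type receptors couple to inhibitory G proteins, which lower cyclic AMP, open inwardly rectifying potassium channels and close presynaptic calcium channels, so they damp excitability and transmitter release. Crhr1 belongs to another receptor class, couples mainly to the stimulatory G protein and raises cyclic AMP during stress.

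The class to which the somatostatin, NPY and opioid-type receptors belong carries a short motif at the inner end of the third transmembrane helix, where the receptor meets its G protein. The coding sequence around it is shown because it lets members of the families be compared at a site of known function. Capitals mark the codons of the motif, read from the reference transcript of each leading transcript (mm10), and each stretch is 57 bases long. It is given for 7 of the genes.
Sstr2, chr11:113624647-113624703, + strand: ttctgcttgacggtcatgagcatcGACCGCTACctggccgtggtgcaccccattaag
Sstr3, chr15:78540093-78540149, - strand: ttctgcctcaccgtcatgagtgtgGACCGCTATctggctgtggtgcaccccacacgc
Npy1r, chr8:66704311-66704367, + strand: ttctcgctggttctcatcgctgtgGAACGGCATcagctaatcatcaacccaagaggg
Npy2r, chr3:82540996-82541052, - strand: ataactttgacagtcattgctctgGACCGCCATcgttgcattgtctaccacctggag
Npy5r, chr8:66681633-66681689, - strand: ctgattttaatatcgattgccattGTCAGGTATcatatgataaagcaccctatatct
Oprd1, chr4:132117231-132117287, - strand: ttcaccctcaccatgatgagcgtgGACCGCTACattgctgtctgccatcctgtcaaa
Oprl1, chr2:181718558-181718614, + strand: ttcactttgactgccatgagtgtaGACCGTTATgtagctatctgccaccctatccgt
The capitals spell Asp-Arg-Tyr in Sstr2, Sstr3, Oprd1 and Oprl1, Asp-Arg-His in Npy2r, Glu-Arg-His in Npy1r and Val-Arg-Tyr in Npy5r. Over the whole coding sequence, Sstr1 and Sstr4 were the most alike of the somatostatin receptors, with 70.4% of aligned bases identical, and Sstr3 and Sstr4 the least, with 62.5%. The NPY receptors shared 58.3% to 61.4% of aligned bases and Oprd1 and Oprl1 67.1%. The longest run of identical bases in any of these alignments was 23, between Sstr1 and Sstr3, shorter than the 31 bases used to look for shared sequence. Stretches of 31 bases shared with any other gene on the same strand were absent from 7 of the 10 genes. They made up 0.257% of those of Sstr3, all shared with Sstr5, 0.226% of those of Oprd1 and 3.76% of those of Npy1r. Stretches shared with the opposite strand of other genes made up 0.426% of those of Oprd1 and 4.14% of those of Npy1r. The deposited posterior SD of the gene count was 0 for all 10 genes in both libraries. It was also 0 in both for every other receptor of the same families, so it does not set the 10 apart.

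Depth was 26128897 expected counts in replicate 1 and 28689423 in replicate 2. The most that a count of 0 allows, 3 counts, stood for 0.115 and 0.105 CPM, for counting error only. All 5 CA1, 5 dentate granule and 5 CA3 markers reached 1 TPM in both libraries. TPM is a level scaled for transcript length and depth. So did 7 of 7 cortical, 5 of 5 thalamic and 8 of 9 striatal markers reach it. Reaching 1 TPM therefore does not tell hippocampus from other regions. The libraries stood apart in some of the marker lists. The summed level of 9 striatal markers was 226.52 TPM in replicate 1 and 81.48 TPM in replicate 2, and that of 7 choroid plexus markers was 1197.85 and 184.13 TPM. All 9 and all 7 were called lower in replicate 2, as were 9.13% of the 16971 genes tested, with median log2 ratios of replicate 2 over replicate 1 of -1.79 and -2.76. The marker lists were chosen with earlier results of these data known, so these counts describe the libraries and are not an independent test. The summed level of 4 cholinergic markers, nearly all of it Ache, was 32.08 and 32.93 TPM. Of these, Chat (48 counts in replicate 1 and 0 in replicate 2) and Slc5a7 (98 and 10 counts) were called lower in replicate 2, Slc18a3 had too few counts to be tested (23 and 2), and Ache was not called (1263 and 1446 counts). The summed level of CA1 markers was 261.24 and 286.81 TPM, that of dentate granule markers 118.94 and 136.78 TPM, and that of CA3 markers 99.0 and 127.28 TPM. In tissue libraries of this kind, fewer cells of a type and less RNA per cell cannot be told apart.

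All 10 receptors were detected at 1 TPM or more in both libraries, against 60.4% of the 22028 protein-coding genes. Their median level was 8.94 TPM in replicate 1 and 11.1 TPM in replicate 2 (10.0 ± 1.51 TPM, mean ± SD), and the median of all protein-coding genes was 4.38 and 4.21 TPM. Together the 10 receptors held 105.53 and 119.89 TPM. The list was chosen with earlier results of these data known. Of the 6 other receptors of the same families, which it leaves out, 2 were detected. The comparison with all protein-coding genes therefore does not test whether the receptors stand out. Sstr4 and Oprl1 stood at the top, followed by Npy2r, Npy1r, Sstr3, Sstr1 and Sstr2, with Oprd1, Npy5r and Crhr1 close to the median of protein-coding genes. The highest mean was 25.2 ± 2.52 TPM for Sstr4 and the lowest 3.71 ± 0.106 TPM for Crhr1. A design of 2 against 2 values cannot give an exact permutation p below 0.333, so the order was judged against the spread between libraries only.

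**Figure D1:**
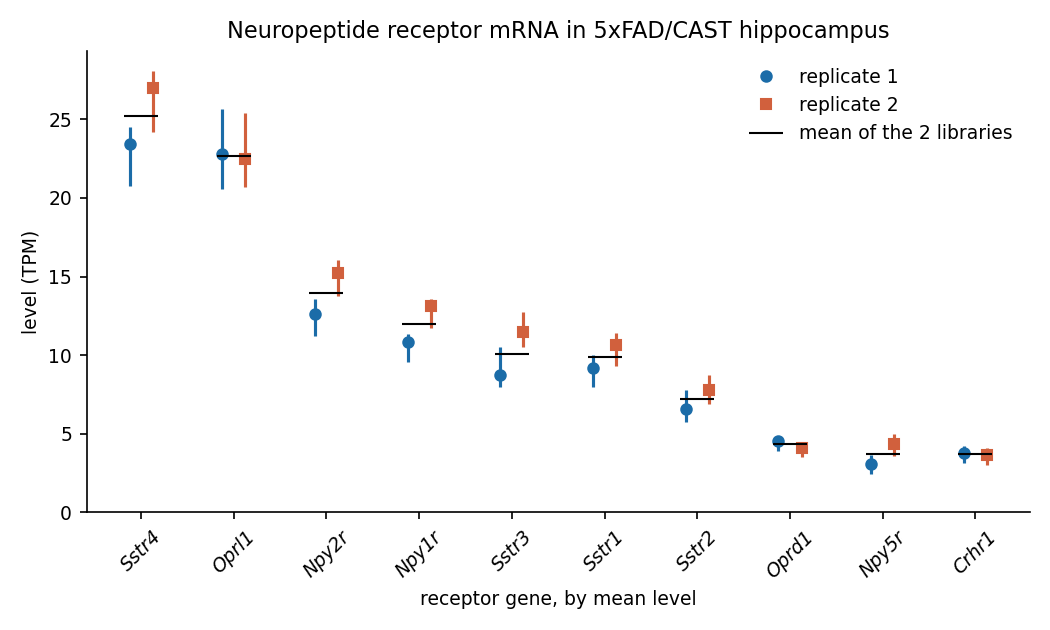
Level of each receptor mRNA in TPM (vertical axis) in replicate 1 (circles) and replicate 2 (squares), with the authors' deposited credibility bounds as vertical lines and the mean of the 2 libraries as a horizontal line. Sstr4 and Oprl1 lie above 20 TPM in both libraries, and Oprd1, Npy5r and Crhr1 lie below 5 TPM in both.

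Sstr4, a somatostatin receptor known from CA1 pyramidal neurons, was the highest of its family and of the 10. It had 23.44 TPM in replicate 1 and 27.01 TPM in replicate 2, from 563 and 693 counts, and stood at percentiles 78.4 and 80.5 of protein-coding genes. Sstr3, which sits on the primary cilium of neurons, had 8.71 and 11.5 TPM from 660 and 930 counts. Sstr1 had 9.17 and 10.65 TPM from 318 and 388 counts. Sstr2, the receptor to which most clinical somatostatin analogues bind, had 6.58 and 7.81 TPM from 241 and 309 counts. The ranges of Sstr3 and Sstr1 overlapped (10.1 ± 1.97 and 9.91 ± 1.05 TPM), whereas Sstr2 lay below Sstr1 in both libraries. Sstr4 had 48.2 ± 1.08% of the summed TPM of Sstr1 to Sstr4. Its level was 2.55-fold that of Sstr1, 2.51-fold that of Sstr3 and 3.51-fold that of Sstr2, as log2 ratios 1.35 ± 0.01, 1.33 ± 0.14 and 1.81 ± 0.03, all many times their SD.

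The remaining member of the family was near 0. Sstr5 had 0.34 TPM (15 counts) in replicate 1 and 0.02 TPM (1 count) in replicate 2, below the detection threshold in both. Sst, the precursor of somatostatin, had 134.38 and 146.77 TPM, more than each of its receptors in both libraries. Cort, which encodes cortistatin, a related peptide that binds the same receptors, had 4.01 and 3.85 TPM.

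The 4 genes lie apart from each other in the genome. Sstr4 (chr2:148395344-148396767, + strand, gene ENSMUSG00000037014.4) is made of 1 exon. The leading transcripts of Sstr1 (chr12:58211772-58214444, + strand), Sstr2 (chr11:113619342-113626028, + strand) and Sstr3 (chr15:78537008-78544685, - strand) have 3, 2 and 3 exons, and each has its coding sequence within 1 of them. Sstr2 lies within the span of Slc39a11, a gene of the opposite strand at 11.45 and 10.57 TPM. The kit is directional, per the labels, but whether the counting used strand is not given in the sources used here, so reads of Slc39a11 in the Sstr2 region could have entered its count.

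Of the NPY receptors, Npy2r and Npy1r stood well above Npy5r. Npy2r, a mainly presynaptic receptor that limits glutamate release, had 12.61 and 15.24 TPM from 654 and 897 counts. Npy1r, a mainly postsynaptic receptor abundant on dentate granule cells, had 10.82 and 13.1 TPM from 558 and 717 counts. Npy5r, known for its part in feeding and in seizure control, had 3.07 and 4.35 TPM from 109 and 164 counts. Npy2r exceeded Npy1r by the same amount in each library (log2 ratio 0.22 ± 0.00182, or 1.16-fold), but the ranges of the genes across the libraries overlapped. In the alignment-free tables that log2 ratio was 0.05 ± 0.06, so the step from Npy2r to Npy1r did not exceed its spread there. Npy1r was 3.26-fold above Npy5r (log2 ratio 1.70 ± 0.16).

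Npy1r and Npy5r are neighbours on opposite strands that run away from each other. Their outermost starts are 9064 bases apart on chr8 (Npy1r chr8:66697192-66706792, + strand; Npy5r chr8:66679965-66688128, - strand), with 0 annotated genes starting between them. Npy2r lies elsewhere (chr3:82538383-82548084, - strand). Npy4r, the receptor of pancreatic polypeptide, had 0.03 TPM (2 counts) in replicate 1 and 0 in replicate 2, and Npy6r had 0 counts in both. Npy, the ligand precursor, had 30.04 and 33.45 TPM, while the precursors of the related gut peptides, Pyy and Ppy, had 0 counts in both libraries.

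Oprl1, which binds nociceptin and none of the classical opioids with high affinity, was close to Sstr4. It had 22.8 TPM in replicate 1 and 22.48 TPM in replicate 2, from 910 and 974 counts. Sstr4 was above it in both libraries, by 0.15 ± 0.16 on the log2 scale, a difference no larger than its SD, and the deposited credibility bounds of the genes overlapped in each library. In the alignment-free tables the step was wider, 0.35 ± 0.09 (Sstr4 23.1 and 27.4 TPM, Oprl1 18.9 and 20.7 TPM), and in posterior mean TPM Sstr4 was below Oprl1 in replicate 1 (22.59 against 23.07) and above it in replicate 2 (26.09 against 23.07). Oprd1, the enkephalin receptor found in the hippocampus mainly on parvalbumin interneurons, had 4.55 and 4.12 TPM from 324 and 313 counts. Oprl1 was 5.23-fold above Oprd1 (log2 ratio 2.39 ± 0.09) and lay 0.71 ± 0.21 above Npy2r, the next gene in the order. Oprl1 lies on chr2 (chr2:181715016-181720985, + strand) and Oprd1 on chr4 (chr4:132110726-132144486, - strand).

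In the opioid family the order of ligand and receptor varied. Pnoc, the precursor of nociceptin, had 3.81 and 3.53 TPM, below its receptor Oprl1 in both libraries. Penk, the enkephalin precursor, had 53.72 and 15.51 TPM, above Oprd1 in both. Pdyn, the dynorphin precursor, had 9.53 and 4.65 TPM. Pomc, which encodes beta-endorphin among other peptides, had 1.26 and 0.88 TPM. Oprk1, the kappa receptor, had 1.76 and 0.73 TPM, below Oprd1 and Pdyn in both libraries. Oprm1, the mu receptor, had 4.12 and 1.51 TPM, and its order against Oprd1 was not settled: its alignment-free level was 4.19 TPM in replicate 1 and 1.61 TPM in replicate 2, and its posterior mean TPM 7.10 and 3.99, against 4.4 and 3.99 for Oprd1.

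Crhr1, the main stress-peptide receptor of hippocampal pyramidal neurons, was the lowest of the 10 by mean. It had 3.78 and 3.63 TPM from 162 and 166 counts, at percentiles 48.4 and 48.5 of protein-coding genes. Its range lay within that of Npy5r, and the log2 ratio of Npy5r over Crhr1 was -0.02 ± 0.40. Sstr2 stood 0.73 ± 0.28 above Oprd1 on the log2 scale, the last step in the order where ranges did not overlap. Crhr1 (chr11:104132855-104175523, + strand) has a coding sequence spread over 13 exons. Crhr2, its relative with a preference for urocortins, had 3.64 and 2.63 TPM. The ligand precursor Crh had 1.45 and 0.72 TPM, whereas Crhbp, a secreted protein that binds and sequesters CRH, had 8.08 and 9.77 TPM. Ucn had 0 counts in both libraries, Ucn2 had 0 and 2 counts, and Ucn3 had 5 and 0 counts.

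**Figure D2:**
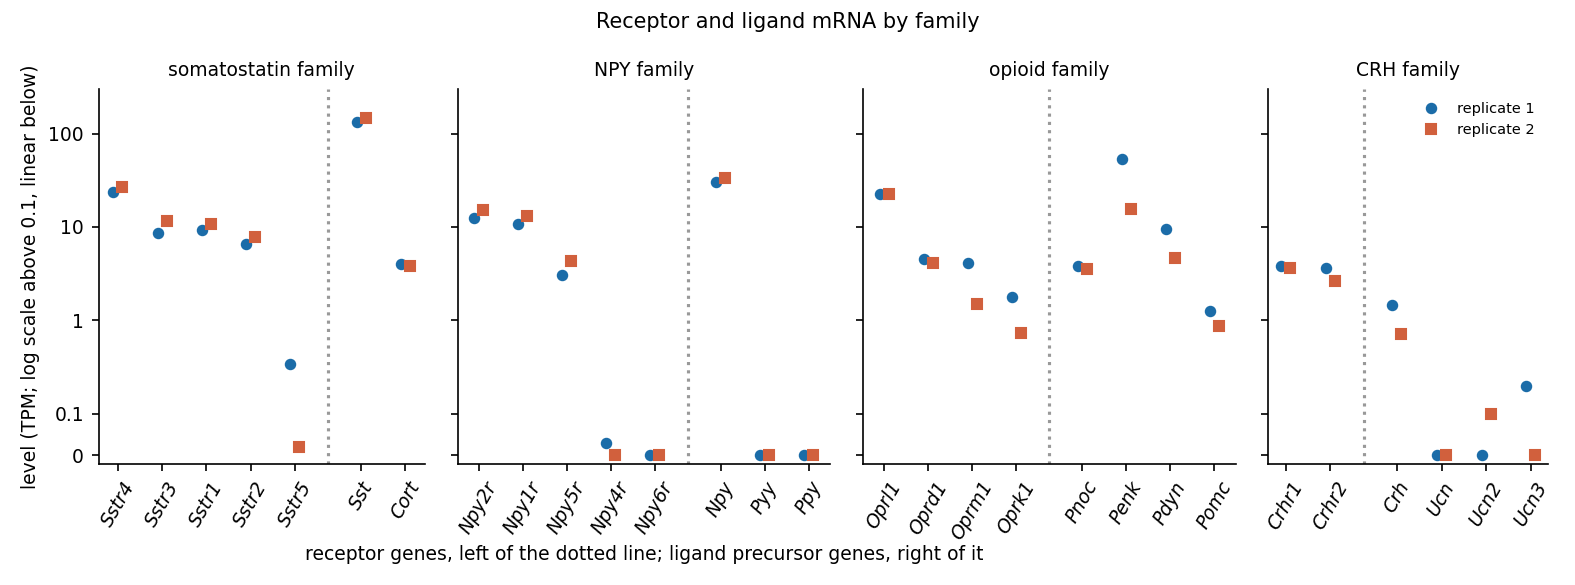
Level in TPM (vertical axis, logarithmic above 0.1 and linear below) of receptor genes, left of each dotted line, and ligand precursor genes, right of it, in replicate 1 (circles) and replicate 2 (squares), by family. Sst and Npy lie above all receptors of their families, Pnoc lies below Oprl1, and Penk and Pdyn are spread widely between the libraries.

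The deposited transcript tables showed which forms of each receptor held the signal. Sstr4, Oprd1 and Crhr1 have 1 annotated transcript each. Sstr2-203 had 96.9% and 100% of the gene's TPM in the alignment-free tables of replicates 1 and 2, and 97.7% and 100% in the alignment-based ones. It encodes 369 residues, the long form known as Sstr2A in mouse, and the transcripts of 346 residues, which have the shorter tail of the form known as Sstr2B, had at most 3.12% in any table. Sstr3-201 had 88.4% and 100% in the alignment-free tables and 100% in both alignment-based ones, the rest in replicate 1 being 11.6% for Sstr3-202, from 5.46 alignment-free counts. Sstr1-201 had 84.3% and 77.6% of the gene's TPM in the alignment-free tables and 99.0% and 87.1% in the alignment-based ones, and its only other transcript encodes the same protein.

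The NPY receptor transcripts were divided less clearly, and differently by each method. Npy1r-201 had 57.4% and 56.7% in the alignment-free tables and 74.7% and 67.1% in the alignment-based ones. The rest went to Npy1r-202, which starts 230 bases upstream and has the same coding sequence. Npy2r-201 had 43.6% and 30.6% in the alignment-free tables and 48.4% and 61.0% in the alignment-based ones, and in the alignment-free table of replicate 2 it came after Npy2r-202, with 44.1%. The third form, Npy2r-204, had 32.7% and 23.5% in the alignment-free tables and 23.6% and 12.9% in the alignment-based ones. Npy5r-201 had 35.3% and 45.2% in the alignment-free tables and 54.2% and 53.3% in the alignment-based ones, and came after Npy5r-203, with 47.3%, in the alignment-free table of replicate 1. Npy5r-202 had 17.4% and 34.1% in the alignment-free tables and 0% and 14.3% in the alignment-based ones. All of these Npy2r and Npy5r forms share the coding sequence of their gene's leading transcript, so the division concerns the untranslated parts and not the receptor protein.

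Oprl1 had the most divided output, with 11 annotated transcripts. Oprl1-201, which encodes the full receptor, had 40.0% and 50.5% in the alignment-free tables and 29.5% and 54.9% in the alignment-based ones. Transcripts annotated as non-coding or as targets of nonsense-mediated decay had 33.9% and 34.2% in the alignment-free tables and 39.2% and 27.6% in the alignment-based ones. The largest of these were Oprl1-208, a processed transcript with 15.6% and 20.1% in the alignment-free tables and 12.2% and 17.9% in the alignment-based ones, and Oprl1-209, a decay target with 18.3% and 14.1% against 16.8% and 9.70%. Counting only protein-coding transcripts of the alignment-based table, Oprl1 had 13.86 and 16.28 TPM (15.1 ± 1.71), against 22.6 ± 0.226 TPM for the whole gene, so on this scale it lay below Sstr4 by more than its spread and its range overlapped that of Npy2r at 13.9 ± 1.86 TPM. Oprl1-202 had 15.7% and 6.45% in the alignment-free tables and 10.3% and 1.47% in the alignment-based ones. Oprl1-204, with the coding sequence of Oprl1-201, had 0% and 0.995% against 8.64% and 10.2%, and Oprl1-206 had 0% in both alignment-free tables against 10.2% and 0%.

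**Figure D3:**
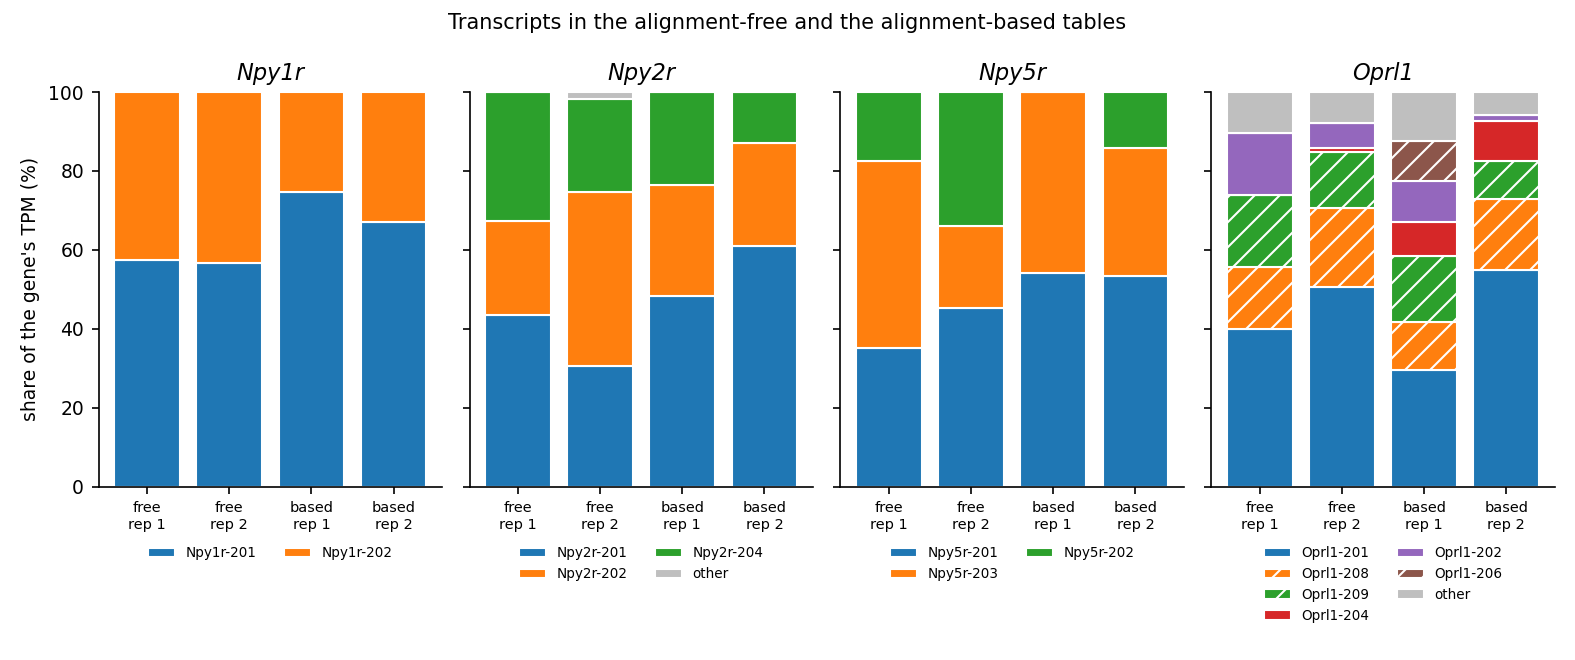
Share of a gene's TPM (vertical axis, percent) by transcript for Npy1r, Npy2r, Npy5r and Oprl1, in the alignment-free table (left pair of bars) and the alignment-based table (right pair) of replicates 1 and 2. Hatched parts are transcripts not annotated as protein-coding. Npy1r-201 takes less of its gene's TPM without alignment than with it in both libraries, and the order of Npy2r and Npy5r transcripts differs between tables.

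Gene counts of the methods were compared as well. For protein-coding genes that held 500 or more expected counts, the alignment-free count was 1.14 times the alignment-based count at the median in both libraries. Npy1r had 718 and 872 counts in the alignment-free tables and 558 and 717 in the alignment-based ones, a ratio of 1.25 ± 0.05 at percentiles 97.7 and 91.9 of those genes. Npy2r had 695 and 931 counts in the alignment-free tables and 654 and 897 in the alignment-based ones, a ratio of 1.05 ± 0.02 at percentiles 4.98 and 3.34. Npy1r is also the gene of the 10 with the most 31-base stretches shared with other genes, and the part of that sharing in its count was not tested. Sstr2 and Npy5r had ratios of 1.05 ± 0.04 and 1.07 ± 0.02, and the other 6 genes had mean ratios of 1.11 to 1.18.

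The sequences upstream of the receptors differed in base composition. RefSeq start sites (GRCm38.p6, the build of mm10) were matched for 9 of the 10 genes, in 12 windows of 250 bases before the start, and Sstr1 was not matched. Neither Sstr3 window has a GENCODE transcript start within 100 bases, so neither lies directly upstream of Sstr3-201, the form that held its reads. The GC content of the 12 windows ran from 44.4% in the first Oprl1 window to 80.0% in the Oprd1 window, against a median of 52.4% over 32851 windows. The windows of Sstr2, Oprd1 and Oprl1 are printed because they show the cyclic AMP motif and both ends of this range. Capitals mark matches on either strand to the cyclic AMP response element TGACGTCA, the GC box GGGCGG and the TATA motif TATAAA, and no marked matches overlap.
Sstr2, chr11:113619077-113619326, + strand: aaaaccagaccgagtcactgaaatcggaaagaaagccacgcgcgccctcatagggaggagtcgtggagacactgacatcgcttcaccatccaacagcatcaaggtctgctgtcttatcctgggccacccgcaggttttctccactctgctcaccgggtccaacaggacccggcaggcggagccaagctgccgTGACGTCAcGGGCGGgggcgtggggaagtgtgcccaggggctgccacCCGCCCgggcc
Oprd1, chr4:132144487-132144736, - strand: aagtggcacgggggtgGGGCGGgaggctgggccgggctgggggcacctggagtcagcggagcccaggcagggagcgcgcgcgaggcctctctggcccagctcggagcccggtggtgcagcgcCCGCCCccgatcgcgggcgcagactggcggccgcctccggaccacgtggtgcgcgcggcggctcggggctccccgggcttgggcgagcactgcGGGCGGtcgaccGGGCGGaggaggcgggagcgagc
Oprl1, chr2:181714766-181715015, + strand: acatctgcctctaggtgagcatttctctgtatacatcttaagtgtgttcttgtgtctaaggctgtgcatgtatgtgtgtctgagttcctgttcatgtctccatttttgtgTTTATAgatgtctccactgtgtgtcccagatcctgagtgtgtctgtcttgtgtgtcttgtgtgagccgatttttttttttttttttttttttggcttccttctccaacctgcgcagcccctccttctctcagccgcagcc
The Sstr2 window has the full cyclic AMP response element from 58 to 51 bases before the start (positions -58 to -51), which 1.55% of all windows hold, and 2 GC boxes, which 32.7% of windows hold at least once. No other receptor's window had the cyclic AMP element. It was sought in all 12 windows, so a match somewhere among them is more likely than the share for a single window. The Oprd1 window has 4 GC boxes and 34 CpG dinucleotides, against a median of 6. The Oprl1 window has 3 CpG dinucleotides, no GC box and a TATA motif on the opposite strand, found in 12.4% of windows. The 7 Oprl1 transcripts that start within 100 bases of this start site had 92.4 ± 1.68% of the gene's TPM in the alignment-free tables and 83.8 ± 0.187% in the alignment-based ones. A TGANTCA motif (AP-1), present in 6.75% of windows, stood at positions -231 to -225 from the start of Npy1r-201. The other Npy1r transcript, Npy1r-202, starts within this motif, so nearly all of the window lies downstream of that start. A match is a description of letters and not of binding.

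Between the libraries, the log2 ratios of the receptors (replicate 2 over replicate 1) lay between -0.18 and 0.46. None of the 10 was more than 2-fold apart, but only 2.01% of the 16971 genes tested were. With 10 genes, that result cannot be set apart from this share. Of the 10, 7 were higher in replicate 2, as were 49.7% of the genes tested. A count of 7 among 10 genes is too small to be set apart from that share. An exact two-sided conditional binomial test on TMM-scaled expected counts, with Benjamini-Hochberg adjustment over the 16971 genes, called 3 of the 10, all higher in replicate 2. The background was 18.4% of genes called in either direction and 9.29% called higher in replicate 2, and the test sets these libraries against counting error only. A count of 3 among 10 genes is too small to be set apart from that background.

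The called receptors were Sstr3, Npy2r and Npy1r. Sstr3 had a log2 ratio of replicate 2 over replicate 1 of 0.37 (95% exact interval 0.22 to 0.51, adjusted p = 1.2e-05). Npy2r had 0.33 (0.18 to 0.48, adjusted p = 0.00016) and Npy1r 0.23 (0.07 to 0.40, adjusted p = 0.028). Npy5r had the largest log2 ratio, 0.46, with the widest interval of the higher genes (0.10 to 0.82), and missed the threshold at adjusted p = 0.056. Sstr4, Sstr2 and Sstr1 had 0.17, 0.23 and 0.16 with adjusted p of 0.14, 0.21 and 0.36. Oprd1, Crhr1 and Oprl1 had -0.18, -0.09 and -0.03 with adjusted p of 0.31, 0.78 and 0.83. In the alignment-free counts Npy1r was no longer called (0.16, adjusted p = 0.11) and Npy5r was (0.50, adjusted p = 0.023), and with DESeq2 size factors Npy5r was called too (adjusted p = 0.041).

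Some other genes of the same systems differed more between the libraries and were lower in replicate 2. Oprm1 and Oprk1 were lower in replicate 2 by log2 ratios of -1.26 and -1.22 (adjusted p = 9.5e-08 and 1.2e-06), as were the ligand precursors Penk at -1.79 (adjusted p = 1.2e-112) and Pdyn at -1.16 (adjusted p = 7.1e-19). Sst and Npy had 0.09 and 0.12 and were not called (adjusted p = 0.20 and 0.57), and Crhr2 had -0.46 (adjusted p = 0.093). Crh, from 32 and 17 counts, had -1.02 and was not called either (adjusted p = 0.072). Of the marker lists, which were chosen with earlier results of these data known, 9 of 9 striatal and 7 of 7 choroid plexus genes were called lower in replicate 2. Penk was among the striatal ones. In contrast, 4 of 5 CA1, 4 of 5 dentate granule and 4 of 5 CA3 genes were called higher. The list medians were 0.12 for CA1, 0.31 for dentate granule and 0.28 for CA3 markers, beside 0.20 for the 10 receptors and -0.00138 for all genes tested. Those of cortical, thalamic and endothelial markers were -0.10, -0.26 and -0.21. Among 8 GABAergic interneuron markers 2 were called higher and 3 lower. What lies behind these marker differences, and whether it has a part in the levels of the receptors, was not tested.

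**Figure D4:**
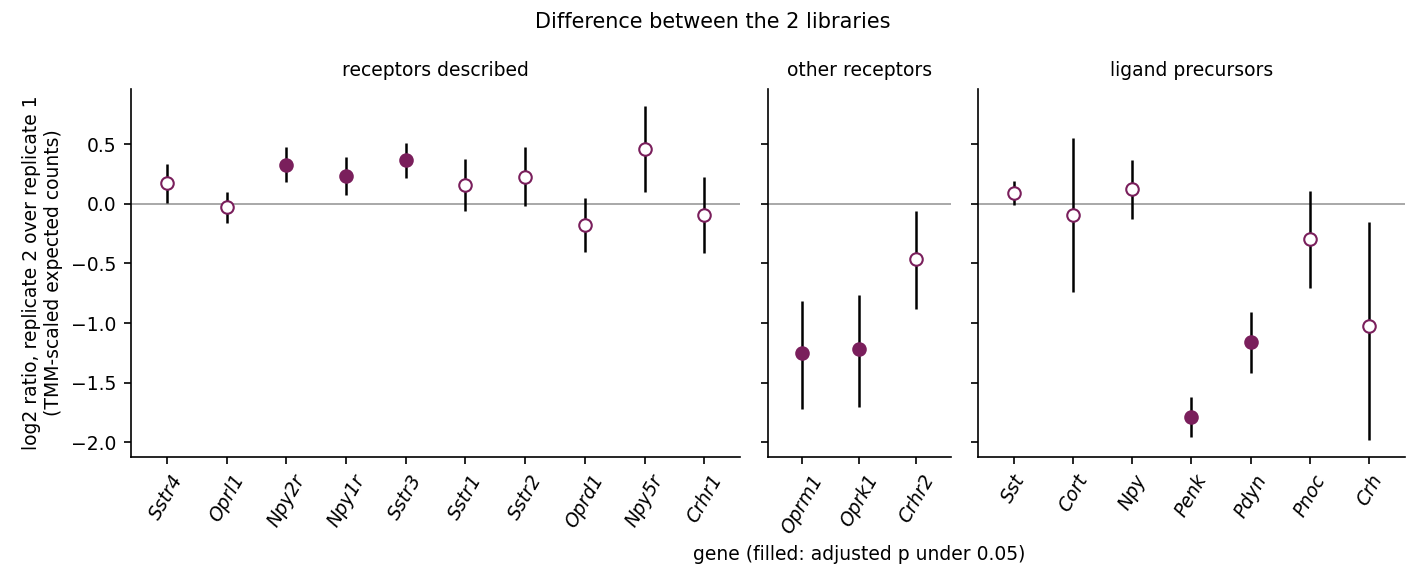
Log2 ratio of replicate 2 over replicate 1 from TMM-scaled expected counts (vertical axis) for the 10 receptors, other receptors of the same families and ligand precursors with enough counts to be tested. Vertical lines are 95% exact intervals for counting error and filled circles have an adjusted p under 0.05. The 10 receptors lie between -0.18 and 0.46, while Oprm1, Oprk1, Penk, Pdyn and Crh lie below -1, Crh without being called.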

How the data were processed

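Hippocampal total RNA of 1 group of 2 libraries was quantified against mm10 and GENCODE M21, per the deposited notes. Which software was used is not given in the sources used here. Deposited expected counts are the authors' estimated reads per gene or transcript, per the file headers. TPM and FPKM values were deposited by the authors as levels relative to transcript length and sequencing depth. The deposited percent column is each transcript's share of its gene's TPM. Alignment-free counts and TPM, deposited per transcript, were summed per gene here.

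TMM factors of the alignment-based counts were set on the 18082 annotated genes that passed the expression filter of edgeR. Only the alternative scaling by ERCC totals used spike-ins, which were 0.541% and 0.448% of counts. Detection required 1 TPM in both libraries. Expected counts were rounded and scaled by TMM (edgeR 4.0.16, R 4.3.3). Genes with a mean count of at least 20 were compared by an exact conditional binomial test with Benjamini-Hochberg adjustment. Log2 ratios took a prior count of 0.5. The test was checked on simulated counts that held counting error only, so the check does not give error rates for these libraries. Sequences came from the GENCODE M21 transcripts and from RefSeq (GRCm38.p6); the coding stretches of Sstr1 and Sstr4 are not reported here. The motif was sought as Asp, Glu or Val, then Arg, then Tyr, His or Cys; Glu and Val were added after narrower patterns had missed Npy1r and Npy5r. Shared sequence was sought in stretches of 31 bases in the transcripts. Python 3.11.15, pandas 2.3.3, numpy 2.4.6, scipy 1.17.1 and matplotlib 3.10.9 were used.

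The members and gene lists were chosen with earlier results of these data known. Named genes were all 10 members, every other receptor and ligand of their families, the 3 highest genes of each further list, and transcripts with at least 10% of a gene's TPM; Crhbp and single marker genes outside the highest 3 were named after their values were seen, and not every marker that the rule took is described. Alternatives covered DESeq2 (1.42.0) size factors, library totals, ERCC totals, filters, prior counts, posterior mean TPM, FPKM, alignment-free values and leaving out each replicate.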

Additional observations from a re-analysis of the deposited data

How the results depend on the processing

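All 10 receptors were detected at a TPM threshold of 2, with posterior mean TPM and with alignment-free TPM (10 in each). A threshold of 0.5 and leaving out either replicate also gave 10. Those runs could not have lowered the count, because all 10 had reached 1 TPM in both libraries. The median of the receptors ran from 8.94 to 11.1 TPM when each replicate was left out, and was 6.84 on the FPKM scale, which is a different unit. ERCC scaling moved the median log2 ratio of all genes tested to 0.27. Under it 8 of the 10 receptors were called, as were 59.1% of all genes, and the log2 ratios of Oprd1, Oprl1 and Crhr1 turned positive, at 0.089, 0.24 and 0.17. This scaling shifts the log2 ratios of all genes by the same amount. Relative to the median of all genes, the receptors therefore lay between -0.18 and 0.46 by construction. The count of called receptors stayed within 1.5 times 3 under the other scalings, without a filter and with alignment-free counts, although the called genes differed as given for Npy1r and Npy5r. No receptor was more than 2-fold apart under any alternative run. Of the levels of single receptors with posterior mean or alignment-free TPM, 15 moved by less than 1 SD and 5 by more, all in Sstr2, Oprl1 and Crhr1, where alignment-free levels were 6.25, 19.8 and 3.50 TPM. Both libraries shared the leading transcript for 10 genes in the alignment-based and for 8 in the alignment-free tables. Both counts include Sstr4, Oprd1 and Crhr1, which have 1 annotated transcript each and could not differ. Low counts limit Npy5r and Crhr1 most. No paired analysis was possible because there was 1 group.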

Other observations

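Beyond the 4 families, 19 of 52 other neuropeptide receptor genes reached 1 TPM in both libraries. The list's median level was 0.918 ± 0.159 TPM (SD, n = 2). Ntsr2, a neurotensin receptor known from astrocytes, had 82.68 TPM in replicate 1 and 85.6 TPM in replicate 2, above Sstr4. Adcyap1r1, the receptor of the peptide PACAP, had 62.69 and 58.77 TPM, and Npr2, a natriuretic peptide receptor, had 28.26 and 27.68 TPM. Of 33 of these genes with enough counts to be tested, 1 was called higher and 7 lower in replicate 2, beside 9.29% and 9.13% of all genes tested.

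The leading transducers of these receptors stood far above them. Of 11 G protein and effector genes 10 reached 1 TPM in both libraries, led by Gnas, the stimulatory alpha subunit, at 812 ± 26.0 TPM, Gnao1, the main inhibitory-type alpha subunit of neurons, at 277 ± 9.13 TPM, and Gnai2 at 120 ± 2.16 TPM. The 6 genes of receptor desensitisation found in the tables, of 8 listed symbols, all reached 1 TPM, with the kinase Grk2 at 78.1 ± 0.587 TPM and the arrestins Arrb1 and Arrb2 at 61.9 ± 0.700 and 42.6 ± 4.07 TPM. The other 2 symbols are older names of Grk2 and Grk3. Of 7 ligand-binding and degrading proteins 4 reached 1 TPM, led by the peptidases Npepps at 62.4 ± 2.42 TPM, Ece1 at 30.0 ± 2.62 TPM and Ece2 at 16.3 ± 1.49 TPM.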
